A study of Homo sapiens with 9 samples.

Results

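The genes described here encode 46 translation initiation and elongation factors, the proteins that start protein synthesis on the ribosome and move the ribosome along the message. They were taken by gene symbol, as the GENCODE 29 protein-coding genes of those names, from 58735 genes in a count table, and all 46 symbols were found there. The rule uses names and no measured value, although the list was chosen with earlier results of these data known. The list holds 6 elongation factor genes and 40 genes of initiation factors and poly(A)-binding proteins.

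RNA was sequenced from HEK293T cells, derived from human embryonic kidney and expressing SV40 T antigen, in 9 libraries. Per the labels, 3 libraries came from cells given an siRNA against PHF12 (PHF12 knockdown), 3 from cells given an siRNA against SUDS3 (SUDS3 knockdown) and 3 from cells given Silencer Select Negative Control No. 2 (control). All cells were transfected with Lipofectamine RNAiMAX at 10 nM siRNA for 36 h. PHF12 and SUDS3 encode subunits of SIN3 histone deacetylase complexes, which hold target genes at low activity. The model has limits: the labels name 1 siRNA per target and do not say whether the 3 libraries of a group were separate cultures, so each p-value measures only the spread between these libraries.

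Initiation begins when the cap at the 5′ end of a message is bound by eIF4E, which sits in a complex with the scaffold eIF4G and the helicase eIF4A. A small ribosomal subunit carrying eIF3, eIF1, eIF1A and the initiator tRNA, brought by eIF2, is recruited there and scans to the start codon. The exchange factor eIF2B recharges eIF2 for the next round and is the step blocked by the integrated stress response, while the 4E-binding proteins hold eIF4E away from eIF4G when mTOR is inactive. During elongation eEF1A delivers aminoacyl-tRNAs, the eEF1B subunits recharge eEF1A, and eEF2 moves the ribosome by a codon.

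Library totals ran between 37962926 and 50946148 counts. PHF12 itself had 27.9, 24.5 and 28.3 CPM (counts scaled to library size with TMM factors) in the PHF12 knockdown, against 50.3, 50.5 and 48.8 CPM in control. SUDS3 had 21.1, 22.3 and 22.9 CPM in the SUDS3 knockdown, against 107, 114 and 112 CPM in control. Each targeted gene was thus lower in all 3 libraries labelled for its siRNA. SUDS3 was also lower in the PHF12 knockdown, at 81.4, 80.1 and 81.5 CPM, and PHF12 was higher in the SUDS3 knockdown, at 59.5, 62.0 and 62.9 CPM. Of the marker genes of this line given here, LIN28B, IGF2BP1 and NEFM were well expressed and PAX2 stood at 1.35, 1.29 and 1.70 CPM on average in the PHF12 knockdown, the SUDS3 knockdown and control. The well expressed markers differed between the groups. In the same order LIN28B averaged 77.1, 96.4 and 135 CPM. IGF2BP1 averaged 342, 391 and 327 CPM, and NEFM 238, 363 and 276 CPM. The 10 markers of blood, liver, endothelium, fibroblasts and keratinocytes summed to 19.4 to 21.98 CPM in the PHF12 knockdown, 22.9 to 26.0 CPM in the SUDS3 knockdown and 13.6 to 15.05 CPM in control. PTPRC, CD3E and KRT14 were at 0 in every library, and most of the sum was COL1A1. The part of these marker differences in the results below was not tested.

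Translation factors moved in both directions in each knockdown. Counts were tested with edgeR's quasi-likelihood test, with Benjamini-Hochberg adjustment over 18088 genes and a threshold of 0.05, and fold changes are log2 differences in each gene's share of the library. In this bulk RNA, a change in the number of cells of some kind and a change in RNA per cell cannot be told apart. In the PHF12 knockdown, 18 of 45 tested members rose, 11 fell and 16 did not pass, where 14.8% of all tested genes rose and 17.1% fell, 31.9% in all. In the SUDS3 knockdown, 8 members rose, 17 fell and 20 did not pass, where 19.6% of all tested genes rose and 19.2% fell, 38.7% in all. Members are abundant messages, and abundant messages pass more often, so 4899 protein-coding genes with an average of at least 50 CPM are the nearer comparison. Of these, 55.1% passed in the PHF12 knockdown and 62.2% in the SUDS3 knockdown, beside 65.1% and 55.8% of the 43 members at that level. In the PHF12 knockdown 28.9% of these genes rose and 26.2% fell, beside 39.5% and 25.6% of those members. In the SUDS3 knockdown 34.6% rose and 27.5% fell, beside 16.3% and 39.5% of those members. The median absolute log2 fold change of those 43 members was 0.15 in the PHF12 knockdown and 0.12 in the SUDS3 knockdown, beside 0.12 and 0.15 over the abundant protein-coding genes. No member changed 2-fold in either knockdown. Log2 fold changes of the members lay between -0.69 and 0.29 in the PHF12 knockdown, with a median of 0.04, and between -0.41 and 0.34 in the SUDS3 knockdown, with a median of -0.06. The medians over all tested genes were -0.00 and -0.02.

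**Figure D1:**
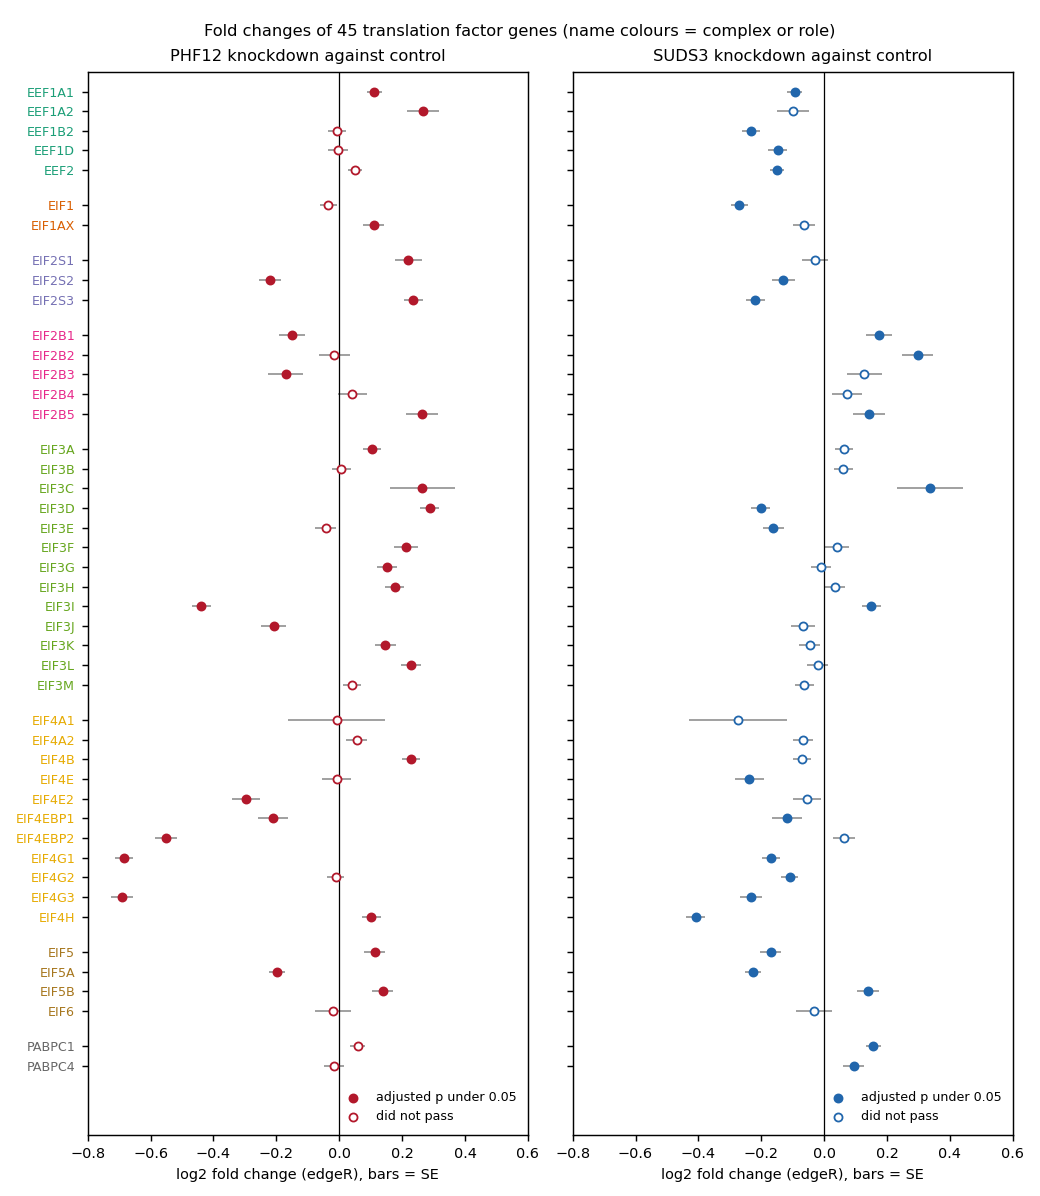
Log2 fold change of each of 45 tested members in the PHF12 knockdown (left panel) and the SUDS3 knockdown (right panel) against the same 3 control libraries, with bars for the standard error. Filled points passed the adjusted p threshold of 0.05, and EIF4G1 and EIF4G3 lie furthest to the left, at -0.68 and -0.69, in the PHF12 panel.

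Both knockdowns were set against the same 3 control libraries, so their fold changes are not independent of each other. The libraries of the SUDS3 and PHF12 knockdowns were therefore also tested against each other directly. In that comparison 12 members were higher in the SUDS3 knockdown, 23 were lower and 10 did not pass, where 22.7% of all tested genes were higher and 21.1% lower, 43.9% in all. Of the protein-coding genes at 50 CPM or more, 68.2% passed, beside 81.4% of the members at that level. Of those genes 35.9% were higher and 32.3% lower, beside 27.9% and 53.5% of those members. The median log2 difference was -0.12 over the members and -0.01 over all genes. The split depended on scaling: with upper-quartile scaling 8 members were higher and 26 lower, and the share of higher genes among all genes that passed was 41.2%, beside 51.8% with TMM scaling. The same scaling gave 22 rises and 10 falls of members in the PHF12 knockdown and moved the share of rises among all genes that passed there to 56.9%, beside 46.4%. In the SUDS3 knockdown it gave 6 rises and 23 falls of members, and the share of rises among all genes that passed was 44.2%, beside 50.5%.

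Elongation factors were lower in the SUDS3 knockdown. Of the 5 tested, 4 fell in the SUDS3 knockdown and none rose, while in the PHF12 knockdown 2 rose and none fell, and all 5 were lower in the SUDS3 knockdown than in the PHF12 knockdown. Among protein-coding genes at 50 CPM or more, 27.5% fell in the SUDS3 knockdown and 28.9% rose in the PHF12 knockdown. Compared directly, 32.3% of those genes were lower in the SUDS3 knockdown. The clearest fall was in EEF1B2, a subunit of the exchange factor that recharges eEF1A. EEF1B2 had 554, 566 and 552 CPM in the PHF12 knockdown, 461, 489 and 481 CPM in the SUDS3 knockdown and 567, 560.3 and 553 CPM in control. All 3 SUDS3 knockdown libraries lay below the other 6, whose values overlapped. EEF1B2 fell by 14.8% in the SUDS3 knockdown (log2 fold change -0.23 ± 0.03 SE, adjusted p = 2.17e-08) and stood at -0.01 ± 0.03 in the PHF12 knockdown (adjusted p = 0.908).

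The translocase gene EEF2, with 3564 ± 97.5, 3103 ± 34.7 and 3443 ± 33.0 CPM in the PHF12 knockdown, the SUDS3 knockdown and control (mean ± SD, n = 3 each), fell by 9.87% in the SUDS3 knockdown (adjusted p = 1.5e-06). Its log2 fold change in the PHF12 knockdown was 0.05 ± 0.02 and did not pass (adjusted p = 0.0948), but passed without PHF12 knockdown replicate 2 (adjusted p = 0.0416), with DESeq2 (0.0178) and with upper-quartile scaling (0.00278). EEF1A1, which encodes the common form of eEF1A, rose by 8.06% in the PHF12 knockdown (adjusted p = 0.000339) and fell by 6.31% in the SUDS3 knockdown (adjusted p = 0.00177), a fall that did not pass with limma on log2(TPM + 1) (adjusted p = 0.0823). Its paralog EEF1A2, the form typical of muscle and neurons, rose by 20.3% in the PHF12 knockdown (adjusted p = 7.31e-05) and had a log2 fold change of -0.10 ± 0.05 in the SUDS3 knockdown (adjusted p = 0.132), which passed with upper-quartile scaling (0.0486). Per exon length, EEF1A2 made up 2.50%, 2.24% and 2.25% of the summed level of both genes in the PHF12 knockdown, the SUDS3 knockdown and control. EEF1D, another subunit of the eEF1A exchange factor, fell by 9.72% in the SUDS3 knockdown (adjusted p = 0.000171) and had a log2 fold change of -0.00 ± 0.03 in the PHF12 knockdown (adjusted p = 0.945). EEF1G, the remaining eEF1B subunit, was listed at 0 counts in all 9 libraries and could not be tested.

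Many of these messages are known as TOP messages, whose 5′ end starts with a C followed by a run of pyrimidines and whose translation, in mammals, is tuned by mTOR and LARP1. The members on a textbook list of them are EEF1A1, EEF1B2, EEF1D, EEF1G, EEF2, EIF3E, EIF3F, EIF3H, EIF4B and PABPC1. The RefSeq promoter table (GRCh38.p14) shows such a tract at the annotated start of several. They are printed here because 8 of the 9 listed genes tested were lower in the SUDS3 knockdown than in the PHF12 knockdown. PABPC1 was higher, EEF1G could not be tested, and the part of the tract in these levels was not tested. Each run below spans 15 bases before the start to 15 bases from it, on the gene's strand, with the longest tract in capitals; the EEF1G start, which lacks one, is given for contrast. The tract of EEF1B2 is 16 bases long and runs past the end of the window, and a second annotated start of EEF1B2 lacks one.
EEF1A1, chr6:73521018-73521047, minus strand: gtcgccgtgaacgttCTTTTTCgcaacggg
EEF2, chr19:3985449-3985478, minus strand: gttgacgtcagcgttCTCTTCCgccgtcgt
EEF1B2, chr2:206159880-206159909, plus strand: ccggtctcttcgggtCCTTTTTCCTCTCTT
EIF4B, chr12:53006441-53006470, plus strand: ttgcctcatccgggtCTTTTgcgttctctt
EIF3F, chr11:7987322-7987351, plus strand: ttccgcttccgCCTCCTTCTTTCTCgacaa
EEF1G, chr11:62573877-62573906, minus strand: tctcccgggcggcttactttgcggcagcgc

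The motif counted was a C followed by at least 4 of C or T, read on the gene's strand only, beginning within 5 bases of the start. It was found at 5 of the 6 listed genes with a promoter entry, and at 13 of the 29 other members with an entry, EIF3D and EIF2S3 among them. By start, 18 of the members' 49 starts held it (36.7%), beside 21.1% of all 35116 promoters of this length. Of the 9 listed genes tested, 4 rose and none fell in the PHF12 knockdown (median log2 fold change 0.06), and 1 rose and 5 fell in the SUDS3 knockdown (median -0.09). Directly compared, 8 of the 9 were lower in the SUDS3 knockdown than in the PHF12 knockdown and 1, PABPC1, was higher (median -0.17). Protein-coding genes at 50 CPM or more were lower in 32.3% and higher in 35.9% of cases in that comparison. EEF1A1, EEF1B2, EEF1D and EEF2 are the elongation factors already described above. The other 5 listed genes split into 4 lower and 1 higher. The 36 tested members outside the list had medians of -0.00, -0.06 and -0.03 in the same comparisons, and 15 of them were lower and 11 higher in the SUDS3 knockdown than in the PHF12 knockdown.

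Of the factors that guard start codon choice, EIF1 was lower in the SUDS3 knockdown. EIF1 had 719, 709.9 and 705 CPM in the PHF12 knockdown, 598, 599.8 and 616 CPM in the SUDS3 knockdown and 716, 733 and 736 CPM in control. The SUDS3 knockdown libraries lay below the other 6, and those of the PHF12 knockdown overlapped control. EIF1 fell by 17.0% in the SUDS3 knockdown (log2 fold change -0.27 ± 0.03, adjusted p = 1.83e-10) and stood at -0.03 ± 0.03 in the PHF12 knockdown (adjusted p = 0.362). EIF1AX, a gene of eIF1A, averaged 307 ± 14.2, 272 ± 7.73 and 284 ± 7.65 CPM in the PHF12 knockdown, the SUDS3 knockdown and control. It rose by 7.86% in the PHF12 knockdown (adjusted p = 0.0122), and the call was lost without PHF12 knockdown replicate 2 (adjusted p = 0.113), PHF12 knockdown replicate 3 (adjusted p = 0.0606) or control replicate 2 (adjusted p = 0.0928) and with limma (0.0893). In the SUDS3 knockdown EIF1AX had a log2 fold change of -0.06 and passed with upper-quartile scaling (adjusted p = 0.0301). Both genes were lower in the SUDS3 knockdown than in the PHF12 knockdown, EIF1 by a log2 difference of -0.23 ± 0.03 and EIF1AX by -0.17 ± 0.03 (adjusted p = 1.96e-09 and 6.07e-05).

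The 3 subunits of eIF2 moved apart in the PHF12 knockdown. EIF2S3, the gamma subunit that binds the initiator tRNA, had 544, 577 and 552 CPM in the PHF12 knockdown, 399, 401 and 421 CPM in the SUDS3 knockdown and 475, 464 and 482 CPM in control. The 3 groups did not overlap, with the PHF12 knockdown highest and the SUDS3 knockdown lowest. EIF2S3 rose by 17.8% in the PHF12 knockdown (log2 fold change 0.24 ± 0.03, adjusted p = 5.47e-08) and fell by 14.1% in the SUDS3 knockdown (-0.22 ± 0.03, adjusted p = 2.33e-07), a direct difference of -0.46 ± 0.03 between the knockdowns (adjusted p = 2.64e-15). EIF2S1, the alpha subunit that stress kinases phosphorylate, rose by 16.4% in the PHF12 knockdown (adjusted p = 8.72e-05), with a log2 fold change of -0.03 ± 0.04 in the SUDS3 knockdown (adjusted p = 0.654). EIF2S2, the beta subunit, fell by 14.2% in the PHF12 knockdown (adjusted p = 4.97e-06) and fell by 8.60% in the SUDS3 knockdown (adjusted p = 0.00337), which did not pass with limma (0.0768). Its difference between the knockdowns, 0.09 ± 0.04 (adjusted p = 0.0355), was no longer called in 8 of 16 alternatives. These were leaving out PHF12 knockdown replicate 3 (adjusted p = 0.285), SUDS3 knockdown replicate 1 (0.111) or SUDS3 knockdown replicate 3 (0.144), DESeq2 (0.0543), no low-count filter (0.0567), a fit of the 2 groups only (0.0574), limma (0.0803) and upper-quartile scaling, where the difference was 0.02 (adjusted p = 0.632).

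Subunits of eIF2B, the exchange factor for eIF2, rose in the SUDS3 knockdown. Of the 5, EIF2B1, EIF2B2 and EIF2B5 rose and none fell in the SUDS3 knockdown, and the log2 fold changes of EIF2B3 and EIF2B4 there were 0.13 ± 0.06 and 0.07 ± 0.05 (adjusted p = 0.0675 and 0.254). Protein-coding genes at 50 CPM or more rose in 34.6% of cases in the SUDS3 knockdown. In the PHF12 knockdown EIF2B5 rose while EIF2B1 and EIF2B3 fell. EIF2B2, a beta subunit, averaged 66.3 ± 1.52 CPM in the PHF12 knockdown, 82.3 ± 1.61 CPM in the SUDS3 knockdown and 67.0 ± 3.42 CPM in control, a rise of 22.9% in the SUDS3 knockdown (adjusted p = 5.88e-06). EIF2B1, the alpha subunit, averaged 109 ± 2.65, 137 ± 4.24 and 121 ± 3.84 CPM in the same order of groups. It fell by 9.95% in the PHF12 knockdown (adjusted p = 0.00349) and rose by 12.8% in the SUDS3 knockdown (adjusted p = 0.000633).

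EIF2B5, the catalytic epsilon subunit, rose by 19.9% in the PHF12 knockdown (adjusted p = 7.79e-05) and by 10.4% in the SUDS3 knockdown (adjusted p = 0.024). The SUDS3 knockdown call was lost without control replicate 2 (adjusted p = 0.117), SUDS3 knockdown replicate 1 (0.116) or SUDS3 knockdown replicate 3 (0.0522), and with upper-quartile scaling (0.0745). EIF2B3, the gamma subunit, fell by 11.1% in the PHF12 knockdown (adjusted p = 0.0167), a call lost without PHF12 knockdown replicate 2 (0.115), PHF12 knockdown replicate 3 (0.0714), control replicate 2 (0.0825) or control replicate 3 (0.0543), with upper-quartile scaling (0.067) and with limma (0.0751). In the SUDS3 knockdown EIF2B3 passed only without SUDS3 knockdown replicate 2 among the alternatives run (adjusted p = 0.0184). Directly compared, EIF2B1, EIF2B2 and EIF2B3 were higher in the SUDS3 knockdown than in the PHF12 knockdown, by log2 differences of 0.33 ± 0.04, 0.31 ± 0.05 and 0.30 ± 0.06 (adjusted p = 1.89e-08, 1.44e-06 and 2.66e-05). EIF2B5 differed by -0.12 ± 0.05 (adjusted p = 0.0507), which passed in 8 of 16 alternatives. These included leaving out control replicate 3 (0.0455) or SUDS3 knockdown replicate 1 (0.0393), DESeq2 (0.0293), a fit of the 2 groups only (0.0373), limma (0.0406), counts divided by 4 (0.0306) and upper-quartile scaling, where the difference was -0.19 (adjusted p = 0.00222).

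The eIF3 complex, the large scaffold that holds the small ribosomal subunit, had 13 tested subunits. In the PHF12 knockdown 8 rose, 2 fell and 3 did not pass, and in the SUDS3 knockdown 2 rose, 2 fell and 9 did not pass. Thus 76.9% and 30.8% of the subunits passed, beside 55.1% and 62.2% of protein-coding genes at 50 CPM or more. Rises made up 28.9% and 34.6% of those genes, and falls 26.2% and 27.5%. The largest differences between the knockdowns were in EIF3I and EIF3D. EIF3I, a WD-repeat subunit, had 347, 333 and 354 CPM in the PHF12 knockdown, 521, 514 and 519 CPM in the SUDS3 knockdown and 483, 466 and 452 CPM in control. The 3 groups did not overlap, with the PHF12 knockdown lowest and the SUDS3 knockdown highest. EIF3I fell by 26.2% in the PHF12 knockdown (log2 fold change -0.44 ± 0.03, adjusted p = 1.99e-14) and rose by 10.9% in the SUDS3 knockdown (0.15 ± 0.03, adjusted p = 0.000103). The direct difference between the knockdowns was 0.59 ± 0.03 (adjusted p = 2.48e-18).

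EIF3D, a subunit that in human cells can itself bind the cap of certain messages, ran the other way. It had 537, 528 and 542 CPM in the PHF12 knockdown, 367, 375 and 402 CPM in the SUDS3 knockdown and 439.8, 444 and 433 CPM in control, again without overlap between groups. EIF3D rose by 22.1% in the PHF12 knockdown (log2 fold change 0.29 ± 0.03, adjusted p = 1.14e-09) and fell by 13.1% in the SUDS3 knockdown (-0.20 ± 0.03, adjusted p = 1.44e-06), and the knockdowns differed by -0.49 ± 0.03 (adjusted p = 6.25e-16).

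The other rises of eIF3 subunits in the PHF12 knockdown were EIF3A, EIF3C, EIF3F, EIF3G, EIF3H, EIF3K and EIF3L, and the other fall was EIF3J, a loosely bound subunit. EIF3L had the highest of these apart from EIF3C, 17.2% (adjusted p = 4.9e-07), with 276 ± 5.39, 232 ± 4.10 and 235 ± 5.94 CPM in the PHF12 knockdown, the SUDS3 knockdown and control. EIF3F rose by 15.8%, EIF3H by 12.9%, EIF3G by 11.2%, EIF3K by 10.6% and EIF3A, the largest subunit and part of the core, by 7.51% in the PHF12 knockdown (adjusted p = 3.36e-05, 2.51e-05, 0.000234, 0.000675 and 0.00494). EIF3J fell by 13.5% there (adjusted p = 4.58e-05). In the SUDS3 knockdown the log2 fold changes of these 7 subunits lay between -0.07 for EIF3J and 0.06 for EIF3A, and none passed with all libraries. EIF3A passed there without SUDS3 knockdown replicate 2 (adjusted p = 0.0366) and EIF3J with upper-quartile scaling (0.0487).

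EIF3E, which fell by 10.6% in the SUDS3 knockdown (adjusted p = 0.000149), was at -0.04 ± 0.03 in the PHF12 knockdown, and its difference between the knockdowns was lost without SUDS3 knockdown replicate 1 (adjusted p = 0.0557) and with limma (0.106). EIF3B, a core subunit, and EIF3M did not pass in either knockdown against control, with log2 fold changes of 0.01 and 0.06 for EIF3B and 0.04 and -0.06 for EIF3M in the PHF12 and SUDS3 knockdowns. EIF3B passed in the SUDS3 knockdown with DESeq2 (adjusted p = 0.0468), and EIF3M passed in both knockdowns with upper-quartile scaling (0.0349 and 0.0119). EIF3C was listed at 13.1 ± 1.02, 13.8 ± 0.865 and 10.9 ± 0.830 CPM in the PHF12 knockdown, the SUDS3 knockdown and control, with log2 fold changes of 0.26 ± 0.10 and 0.34 ± 0.10 (adjusted p = 0.0497 and 0.00929). Its PHF12 knockdown call was lost without any of PHF12 knockdown replicates 1 and 2 (adjusted p = 0.180 and 0.132), SUDS3 knockdown replicate 1 (0.0515) or control replicates 1, 2 and 3 (0.213, 0.0556 and 0.0598), and with no low-count filter (0.0653). Its SUDS3 knockdown call was lost without SUDS3 knockdown replicate 3 (0.0509) or control replicate 1 (0.0622). EIF3CL, which holds 96.8% of the 50-base stretches of the longest EIF3C coding transcript, did not rise. EIF3CL had log2 fold changes of -0.21 ± 0.14 and -0.05 ± 0.14 in the PHF12 and SUDS3 knockdowns (adjusted p = 0.263 and 0.831). Compared directly, EIF3I and EIF3J were higher and 8 subunits lower in the SUDS3 knockdown than in the PHF12 knockdown, and EIF3A, EIF3B and EIF3C did not pass, although EIF3A did without SUDS3 knockdown replicate 3 (adjusted p = 0.028) and with upper-quartile scaling (0.00215). With that scaling the difference of EIF3J did not pass (0.121).

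The cap-binding complex and its regulators held the largest falls of all members in the PHF12 knockdown. Of 11 tested genes, 2 rose, 5 fell and 4 did not pass in the PHF12 knockdown, and none rose, 6 fell and 5 did not pass in the SUDS3 knockdown. The shares that passed, 63.6% and 54.5%, were near the 55.1% and 62.2% of protein-coding genes at 50 CPM or more. Falls made up 45.5% and 54.5% of the 11, beside 26.2% and 27.5% of those genes. EIF4G1, the main scaffold, had 426, 419.6 and 455 CPM in the PHF12 knockdown, 620.2, 619 and 618 CPM in the SUDS3 knockdown and 702, 684 and 704 CPM in control. The 3 groups did not overlap, and both knockdowns lay below control. EIF4G1 fell by 37.8% in the PHF12 knockdown (log2 fold change -0.68 ± 0.03, adjusted p = 1.86e-20) and fell by 11.1% in the SUDS3 knockdown (-0.17 ± 0.03, adjusted p = 9.52e-06).

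EIF4G3, the paralogous scaffold, had 133, 136 and 135 CPM in the PHF12 knockdown, 181, 185 and 189 CPM in the SUDS3 knockdown and 213, 222 and 218 CPM in control, in the same order as EIF4G1 and also without overlap. It fell by 38.1% in the PHF12 knockdown (log2 fold change -0.69 ± 0.04, adjusted p = 3.62e-18) and fell by 14.9% in the SUDS3 knockdown (-0.23 ± 0.03, adjusted p = 1.18e-06). Per exon length, EIF4G3 made up 21.1%, 20.5% and 21.2% of the summed level of both scaffolds in the PHF12 knockdown, the SUDS3 knockdown and control. EIF4G2, a related scaffold that lacks the eIF4E-binding part, was at -0.01 ± 0.03 in the PHF12 knockdown. It fell by 7.34% in the SUDS3 knockdown (adjusted p = 0.00104), which was lost without SUDS3 knockdown replicate 2 (0.0503), as was its lower level than in the PHF12 knockdown (0.0568). The lower level also did not pass with limma (0.0537).

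EIF4EBP2, a repressor that binds eIF4E, had 150.3, 159 and 159 CPM in the PHF12 knockdown, 241, 234 and 242 CPM in the SUDS3 knockdown and 229, 225 and 232 CPM in control. The PHF12 knockdown libraries lay below the other 6. EIF4EBP2 fell by 31.8% in the PHF12 knockdown (log2 fold change -0.55 ± 0.03, adjusted p = 1.35e-15), was at 0.06 ± 0.03 in the SUDS3 knockdown (adjusted p = 0.149), and had the largest difference of any member between the knockdowns, 0.61 ± 0.03 (adjusted p = 2.98e-17). Its paralog EIF4EBP1 fell by 13.5% in the PHF12 knockdown (adjusted p = 0.000558) and fell by 7.81% in the SUDS3 knockdown (adjusted p = 0.0466). The SUDS3 knockdown call of EIF4EBP1 was lost without any of the SUDS3 knockdown replicates 2 and 3 (adjusted p = 0.121 and 0.318), control replicates 1 and 2 (0.227 and 0.0896) or PHF12 knockdown replicate 3 (0.0553), and with DESeq2 (0.0768), no low-count filter (0.0512) or limma (0.262), 8 of 16 alternatives in all. Its difference between the knockdowns, 0.09 ± 0.05 (adjusted p = 0.114), passed without PHF12 knockdown replicate 1 (0.0392) or SUDS3 knockdown replicate 3 (0.0261). Per exon length, EIF4EBP2 made up 18.9 ± 1.16%, 25.1 ± 1.35% and 22.8 ± 0.848% of the summed level of both repressors in the PHF12 knockdown, the SUDS3 knockdown and control. That it is the smaller part rests on the lengths used, 7257 bases for EIF4EBP2 and 1073 for EIF4EBP1. In CPM, without length, EIF4EBP2 was the higher gene in control, at 229 against 115.

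EIF4H and EIF4B, cofactors of the eIF4A helicase, were higher in the PHF12 knockdown than in the SUDS3 knockdown. EIF4H had 347, 351 and 355 CPM in the PHF12 knockdown, 240.2, 245 and 254 CPM in the SUDS3 knockdown and 319, 334 and 328 CPM in control, with no overlap between groups. It fell by 24.7% in the SUDS3 knockdown (log2 fold change -0.41 ± 0.03, adjusted p = 3.83e-13), the largest fall of a member there. EIF4H rose by 7.34% in the PHF12 knockdown (adjusted p = 0.00964), which was lost without control replicate 1 (0.0641). EIF4B had 517, 519 and 512 CPM in the PHF12 knockdown, 411, 422 and 427 CPM in the SUDS3 knockdown and 449.9, 442 and 430.0 CPM in control, so all 3 groups were apart. EIF4B rose by 17.1% in the PHF12 knockdown (log2 fold change 0.23 ± 0.03, adjusted p = 4.02e-08). Its value of -0.07 ± 0.03 in the SUDS3 knockdown missed the threshold (adjusted p = 0.0501) and passed in 6 of 16 alternatives. These included leaving out control replicate 3 (0.0235) or SUDS3 knockdown replicate 3 (0.0409), DESeq2 (0.0471), upper-quartile scaling (0.00574) and counts divided by 4 (0.0341).

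The cap-binding protein gene EIF4E fell by 15.2% in the SUDS3 knockdown (adjusted p = 0.0001) and was at -0.01 ± 0.05 in the PHF12 knockdown. Its homolog EIF4E2, which can bind the cap and repress translation, fell by 18.6% in the PHF12 knockdown (adjusted p = 2.01e-06) and was at -0.06 ± 0.05 in the SUDS3 knockdown. EIF4E averaged 84.1 ± 2.76, 71.8 ± 2.65 and 84.6 ± 2.79 CPM, and EIF4E2 79.5 ± 1.61, 94.0 ± 2.50 and 97.7 ± 4.49 CPM, in the PHF12 knockdown, the SUDS3 knockdown and control. Per exon length, EIF4E2 made up 64.9%, 72.0% and 69.3% of the summed level of both. These shares depend on the lengths used, 14067 bases for EIF4E and 7177 for EIF4E2. The helicase genes EIF4A1 and EIF4A2 did not pass against control in either knockdown. EIF4A2 had log2 fold changes of 0.06 and -0.07 in the PHF12 and SUDS3 knockdowns, passed in the SUDS3 knockdown without SUDS3 knockdown replicate 3 (adjusted p = 0.0127), and was lower in the SUDS3 knockdown than in the PHF12 knockdown (-0.12 ± 0.03, adjusted p = 0.00232). With upper-quartile scaling it passed in both knockdowns, at 0.09 and -0.10 (adjusted p = 0.0247 and 0.0201). EIF4A1 was listed at only 7.16 ± 1.24, 5.94 ± 1.02 and 7.21 ± 1.16 CPM in the PHF12 knockdown, the SUDS3 knockdown and control.

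**Figure D2:**
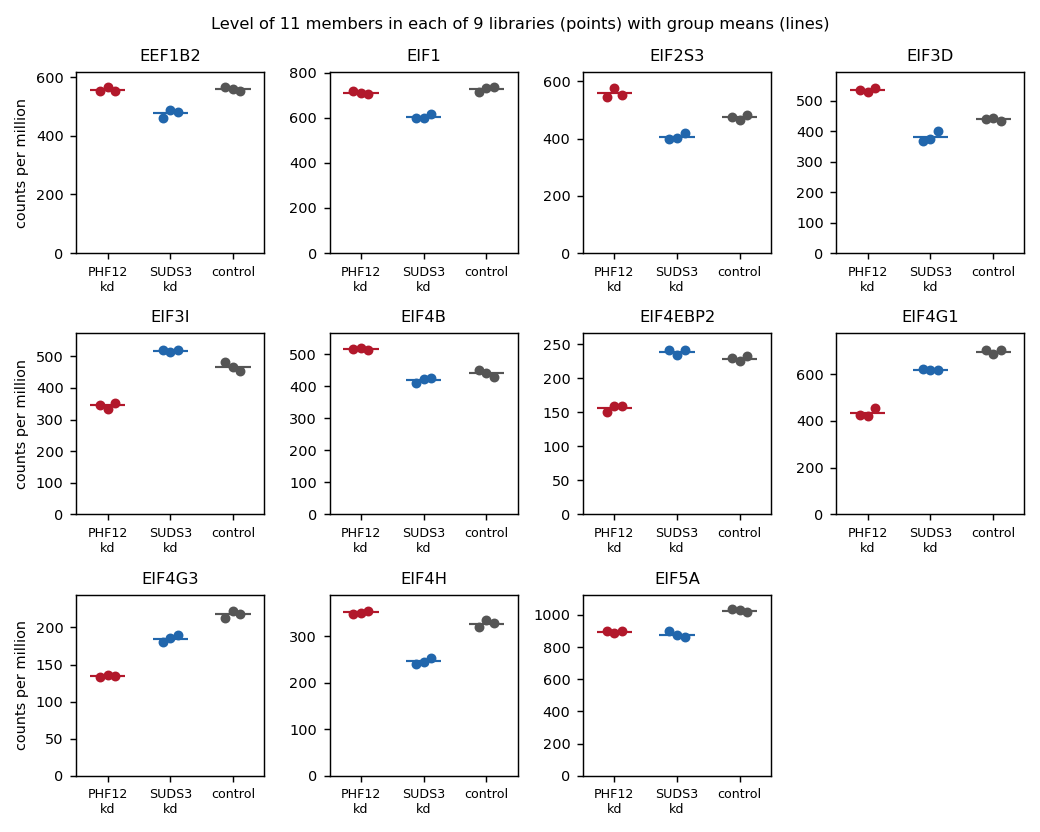
Level in CPM of 11 members in each library, with the PHF12 knockdown, the SUDS3 knockdown and control from left to right, points for libraries and lines for group means, each axis starting at 0. The 3 groups do not overlap in EIF2S3, EIF3D, EIF3I, EIF4B, EIF4G1, EIF4G3 and EIF4H, and the PHF12 knockdown is lowest in EIF3I, EIF4EBP2, EIF4G1 and EIF4G3.

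A short sequence that was common in the 3′ untranslated regions (3′ UTRs) of genes that fell in the PHF12 knockdown was looked for in the members. All hexamers in the longest annotated 3′ UTR of 13662 tested genes were scored against the fold changes of the same knockdown, so the choice of hexamer rests on those fold changes and the shares below are a description. In the PHF12 knockdown the hexamer with the lowest score was AATCAC. It was present in 31.0% of all these genes, in 55.7% of those that fell and in 18.5% of those that rose. Of 44 members with a 3′ UTR, 12 held it (27.3%), among them 6 of the 11 that fell (54.5%) and 2 of the 18 that rose (11.1%). The fallen members with it were EIF2S2, EIF3I, EIF3J, EIF4E2, EIF4G1 and EIF4G3, and EIF4EBP2, which fell by 31.8%, lacked it in a 3′ UTR of 6871 bases. Sites of EIF4G1, EIF4G3 and EIF4E2, which are among the larger falls, are printed from GENCODE 29 transcripts on GRCh38, in the direction of transcription, with the hexamer in capitals; EIF4G3 held 3 sites, of which the nearest to the stop codon is shown.
EIF4G1, chr3:184335214-184335239, plus strand: attttctgaaAATCACtctcgggact
EIF4G3, chr1:20807232-20807257, minus strand: cgtcttcgccAATCACagtgcagcaa
EIF4E2, chr2:232580921-232580946, plus strand: gaaatacaaaAATCACattgtgagag

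For the SUDS3 knockdown the lowest-scoring hexamer was GTACAT. It was present in 31.6% of the 3′ UTRs of all these genes, in 46.2% of those that fell and in 24.9% of those that rose. Of 44 members with a 3′ UTR in the set, 12 held it (27.3%). They included 4 of the 16 that fell (25.0%), namely EIF4H, EEF2, EIF4E and EIF5, and 1 of 8 that rose (12.5%). The share among the fallen members was thus no higher than among all members or all genes. A match is a run of letters and not a measured site, and the part of these sequences in the falls was not tested.

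Among the factors that act at the start codon and after it, EIF5A fell in each knockdown. EIF5A, which helps the ribosome through difficult stretches and carries the amino acid hypusine, had 899, 889 and 897 CPM in the PHF12 knockdown, 899, 874 and 860.2 CPM in the SUDS3 knockdown and 1034, 1027 and 1018 CPM in control. The knockdown libraries overlapped each other and all lay below control. EIF5A fell by 12.8% in the PHF12 knockdown (log2 fold change -0.20 ± 0.03, adjusted p = 6.98e-08) and fell by 14.5% in the SUDS3 knockdown (-0.23 ± 0.03, adjusted p = 4.05e-09). EIF5B, which joins the ribosomal subunits, averaged 463 ± 25.2, 464 ± 18.0 and 421 ± 15.3 CPM in the PHF12 knockdown, the SUDS3 knockdown and control. It rose by 10.0% in the PHF12 knockdown (adjusted p = 0.00184) and by 10.1% in the SUDS3 knockdown (adjusted p = 0.00133), and the PHF12 knockdown call was lost without PHF12 knockdown replicate 2 (0.0517) and with limma (0.0589). Between the knockdowns EIF5A differed by -0.03, and by -0.09 with upper-quartile scaling, which passed (adjusted p = 0.00239).

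EIF5, which triggers GTP hydrolysis by eIF2, averaged 516 ± 16.6, 424 ± 25.5 and 477 ± 18.3 CPM in the PHF12 knockdown, the SUDS3 knockdown and control. It fell by 11.2% in the SUDS3 knockdown (adjusted p = 0.000128). Its rise of 8.09% in the PHF12 knockdown (adjusted p = 0.011) was lost without PHF12 knockdown replicate 2 (0.0785), control replicate 1 (0.0781) or control replicate 2 (0.0624) and with limma (0.130). EIF6, which keeps the large subunit apart until it is ready, had log2 fold changes of -0.02 ± 0.06 in the PHF12 knockdown and -0.03 ± 0.06 in the SUDS3 knockdown (adjusted p = 0.848 and 0.717).

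The poly(A)-binding protein genes rose in the SUDS3 knockdown. PABPC1, whose product binds the poly(A) tail and eIF4G, averaged 1166 ± 18.0, 1248 ± 11.3 and 1119 ± 19.1 CPM in the PHF12 knockdown, the SUDS3 knockdown and control, a rise of 11.4% in the SUDS3 knockdown (adjusted p = 2.91e-06). Its log2 fold change in the PHF12 knockdown was 0.06 ± 0.02 (adjusted p = 0.0669), which passed without SUDS3 knockdown replicate 3 (0.0478), with DESeq2 (0.00987), upper-quartile scaling (0.00231), a fit of the 2 groups only (0.0476) and counts divided by 4 (0.0413). PABPC4, its paralog, rose by 6.73% in the SUDS3 knockdown (adjusted p = 0.0209), a call lost without SUDS3 knockdown replicates 2 or 3 (0.0638 and 0.071) or control replicates 1 or 2 (0.118 and 0.083), with upper-quartile scaling (0.116) and with limma (0.0586). Both were higher in the SUDS3 knockdown than in the PHF12 knockdown, PABPC1 by 0.10 ± 0.02 and PABPC4 by 0.11 ± 0.03 on the log2 scale (adjusted p = 0.0012 and 0.00525). With upper-quartile scaling neither difference passed.

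**Figure D3:**
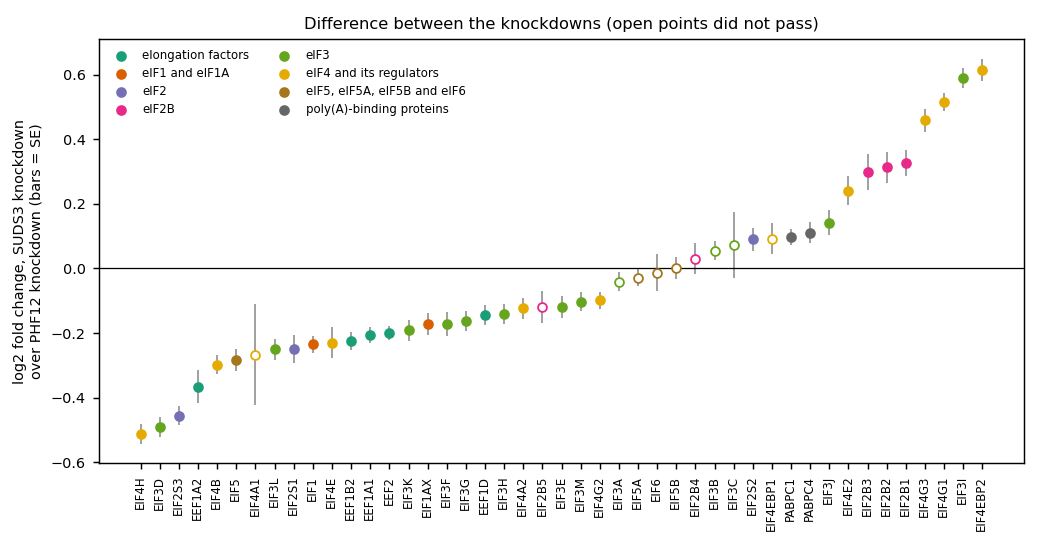
Log2 fold change of each tested member in the SUDS3 knockdown over the PHF12 knockdown, in ascending order, with bars for the standard error, colours for the complex or role and open points for members that did not pass. The elongation factors all lie below 0, and EIF4EBP2 (0.61), EIF3I (0.59) and EIF4G1 (0.51) lie at the upper end opposite EIF4H (-0.51) and EIF3D (-0.49).

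Levels can be compared between genes only per length, so counts were divided by the summed exon length of each gene and scaled to the same total in every library, as TPM are. That length covers all annotated exons, not the transcript in use, so levels and shares compared between genes on this scale depend on it. On that scale EEF2 was the highest member in control, at 2957 ± 15.7, ahead of EEF1A1 at 2023 ± 42.9, EIF5A at 1261 ± 8.76, EEF1B2 at 1012 ± 3.28 and EIF3I at 937 ± 17.0. The control libraries of these 5 did not overlap from one gene to the next on this scale. In CPM, without length, EEF1A1 and EEF2 averaged 3480 ± 121 and 3443 ± 33.0 in control, and their libraries overlapped. The order of these 2 genes thus rests on the lengths used, 5948 and 4027 bases. Per length, the subunits of the same complex differed. In control the eIF3 subunits other than EIF3C lay between 64.4 for EIF3F and 937 for EIF3I. The eIF2B subunits lay between 26.8 for EIF2B5 and 116 for EIF2B1. The lengths weigh in this: they were 9431 bases for EIF3F and 1725 for EIF3I, which had 176 and 467 CPM in control. In CPM, EIF3A was above EIF3I in control, at 522. All members together made up 1.64% of the length-scaled level of all genes in the PHF12 knockdown, 1.59% in the SUDS3 knockdown and 1.65% in control.

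Summed over each complex or role, the length-scaled level of the elongation factors was 6378 ± 70.1 in the PHF12 knockdown, 5742 ± 69.2 in the SUDS3 knockdown and 6158 ± 24.2 in control, with no overlap between the libraries of the 3 groups. The eIF2B sum was 282 ± 6.0, 343 ± 7.68 and 297 ± 9.83 in the same order, with the SUDS3 knockdown libraries above the other 6. The sum of the eIF4 genes and their regulators, 2032 ± 8.46 in the PHF12 knockdown and 2053 ± 17.8 in the SUDS3 knockdown, was below the 2212 ± 25.8 of control in every library. That sum includes the repressors EIF4EBP1 and EIF4EBP2, at 369 and 109 in control. The eIF3 sum was 3180 ± 29.05, 3377 ± 63.8 and 3260 ± 25.4 in the PHF12 knockdown, the SUDS3 knockdown and control. It had the same order of groups as EIF3I, its highest subunit on the length-scaled level, at 685 ± 22.8, 1071 ± 3.93 and 937 ± 17.0. The order of the eIF3 sum rests on the lengths used, with only 1725 bases for EIF3I. It is not the order of most subunits, since 8 of 13 rose in the PHF12 knockdown and 2, EIF3I among them, fell. The sums are a description with no test, since they weigh each gene by its level.

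**Figure D4:**
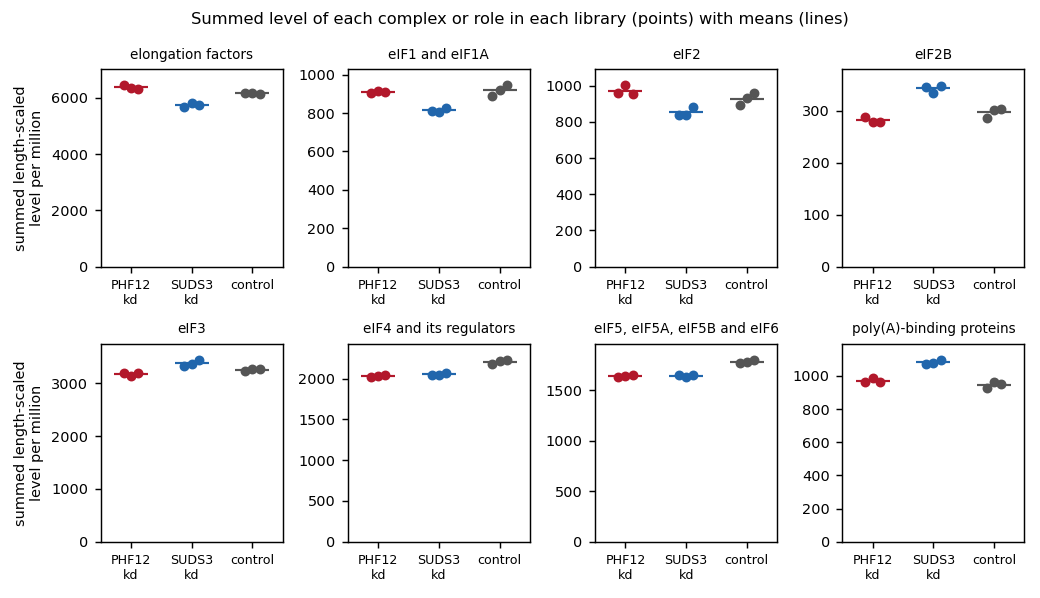
Summed length-scaled level of the members of each complex or role, in the PHF12 knockdown, the SUDS3 knockdown and control from left to right, with points for libraries and lines for means and each axis starting at 0. The elongation factors are lowest in the SUDS3 knockdown (5742) and eIF2B and the poly(A)-binding proteins are highest there (343 and 1081).

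Nearly all of the sequence of 3 members also occurs in other genes, and these 3 had low levels. EIF4A1, EEF1G and EIF3C are core parts of the machinery, and they had the 3 lowest length-scaled levels in control, 4.70 for EIF4A1, 5.41 for EIF3C and 0 for EEF1G. Of all 50-base stretches of the longest coding transcript, 100% in EIF4A1, 98.7% in EEF1G and 96.8% in EIF3C also occur in annotated transcripts of other genes. The gene that shares most is AC016876.2 for EIF4A1 (91.7% of the stretches), AP002990.1 for EEF1G (96.7%) and EIF3CL for EIF3C (96.8%). The next highest members were EIF3L at 47.3%, EEF1B2 at 45.0%, EIF5A at 31.7% and EIF4B at 30.6%, and 16 members shared none. EIF3CL itself had 6.87 ± 0.976, 7.71 ± 0.797 and 7.98 ± 0.830 CPM in the PHF12 knockdown, the SUDS3 knockdown and control. Whether the low levels come from reads left out for mapping to several places was not tested. Of all 46 members, 23 have pseudogenes named after them, 5 overlap a tested gene on the same strand and 21 on the opposite strand, so part of their counts could belong to other genes.

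**Figure D5:**
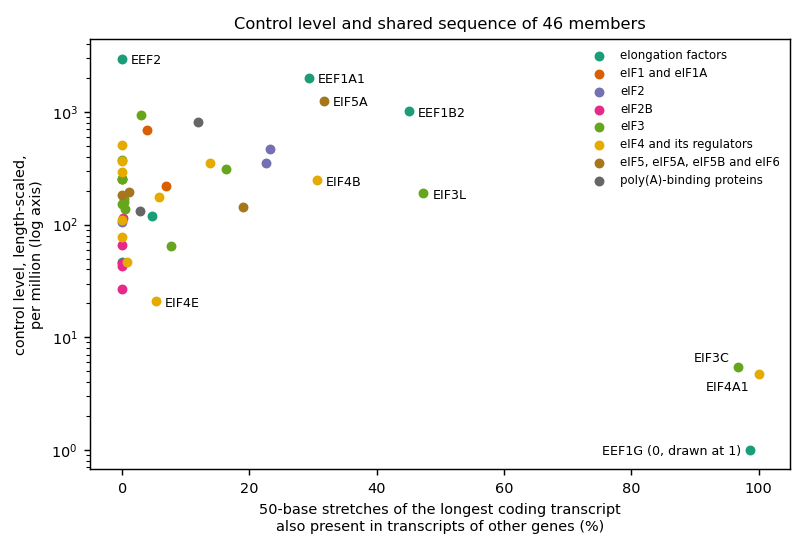
Mean length-scaled level in control (log axis) of the 46 members against the percentage of 50-base stretches of the longest coding transcript that also occur in transcripts of other genes, coloured by complex or role. EIF4A1, EIF3C and EEF1G, at 96.8% to 100% shared, lie at the bottom, and EEF1G, at 0, is drawn at 1.

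A second list held 41 other genes of translation, among them eIF2 kinases, release factors and mTOR pathway kinases, of which 40 were tested. In the PHF12 knockdown 14 of them rose and 7 fell, with a median log2 fold change of 0.06, and in the SUDS3 knockdown 15 rose and 12 fell, with a median of 0.05. Thus 52.5% and 67.5% of them passed, beside 31.9% and 38.7% of all tested genes. Of the protein-coding genes at 50 CPM or more, 55.1% and 62.2% passed, which is near the shares of this list. The smallest p-values in the PHF12 knockdown belonged to DDX3X, a helicase of initiation (0.38, adjusted p = 1.84e-13), LARP1, which binds TOP messages (-0.33, adjusted p = 2.72e-10), and PPP1R15B, which directs dephosphorylation of eIF2 alpha (0.36, adjusted p = 1.11e-09). In the SUDS3 knockdown they belonged to LARP1 (-0.66, adjusted p = 2.96e-18), MKNK2, a kinase of eIF4E (0.48, adjusted p = 3.77e-11), and DDX3X (-0.31, adjusted p = 5.01e-11). Directly compared, DDX3X differed by -0.68, PPP1R15B by -0.46 and MKNK1, also a kinase of eIF4E, by 0.79 (adjusted p = 5.2e-21, 1.3e-12 and 4.26e-11).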

How the data were processed

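Reads were trimmed with Trimmomatic 0.36, aligned with HISAT2 2.1.0 and counted with HTSeq on GRCh38, per the submitters' processing notes, and libraries were stranded poly-A TruSeq libraries per the labels' protocols. Strand setting and annotation of the counting: not given in the sources used here. Deposited counts covered 58735 genes, all found in GENCODE 29, and a table of TPM was deposited as well. Of the deposited counts above 0, 96.1% are multiples of 4, so counting error is larger than the counts imply. Among the members' counts, with those at 0 included, 74.6% are multiples of 4. The lengths implied by the deposited counts and TPM were unrelated to annotated exon lengths (Pearson's r = 0.000118 on the log scale across 11146 genes with a total count of at least 2000), so TPM served only within genes, and levels between genes came from counts divided by summed exon length.

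The fit used edgeR 4.0.16 under R 4.3.3 on counts as deposited (filterByExpr with a minimum count of 10, TMM, robust quasi-likelihood, a mean for each of 3 groups, all 9 libraries), with Benjamini-Hochberg adjustment over 18088 genes in each of 3 contrasts and a threshold of 0.05. CPM are TMM-scaled. Alternatives were DESeq2 1.42.0, upper-quartile scaling, no low-count filter, only the 2 groups compared, a replicate block, counts divided by 4, limma 3.58.1 on log2(TPM + 1), and each library left out in turn. No libraries of a group were identical, and their chi-square per degree of freedom was 5.26 to 7.98.

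All 46 members are named. Values in every library are given for the 6 members with the smallest p in each knockdown and the 3 largest differences between knockdowns among members that passed in opposite directions. Of the other translation genes, the 3 with the smallest p in each contrast are named. A marker gene and a sequence are not reported here. The members, the lists and the sequence searches were chosen with earlier results of these data known. Hexamers were scored by the mean fold change of the genes that hold them, after regression on expression level, length and base composition of the 3′ UTR.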

Additional observations from a re-analysis of the deposited data

How the results depend on the processing

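No member's fold change turned sign in a way that reversed a call under any of the 16 alternatives run. Leaving out each library in turn gave 15 to 19 rises and 10 to 11 falls of members in the PHF12 knockdown, 5 to 9 rises and 15 to 18 falls in the SUDS3 knockdown, and 11 to 13 higher and 22 to 24 lower members between the knockdowns. The lowest of these, 5 rises in the SUDS3 knockdown against 8 with all libraries, came without SUDS3 knockdown replicate 3, where EIF2B5, EIF3C and PABPC4 were no longer called. The cause was not tested. Across the settings other than leaving out a library, 7 member values lost their call and 8 gained one in the PHF12 knockdown, 8 lost and 10 gained in the SUDS3 knockdown, and 10 lost and 8 gained between the knockdowns.

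The labels give the groups the same replicate numbers, but same-numbered libraries did not deviate together (correlations of -0.0158 to 0.0304), and 3 of the 9 libraries matched best with their own number. With a replicate block, 17 members rose and 11 fell in the PHF12 knockdown, 8 rose and 18 fell in the SUDS3 knockdown, and 12 were higher and 24 lower between the knockdowns. Under the block EIF3C was no longer called in the PHF12 knockdown (edgeR adjusted p = 0.0556), while EIF4B was called in the SUDS3 knockdown (0.0449) and EIF2B5 between the knockdowns (0.0427). EIF3C, EIF4A1 and EEF1G had the lowest counts of the members, so their values are the least precise. Whether depth or shared sequence sets those counts was not tested.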

Other observations

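Among the other translation genes, EIF2AK2, the kinase that double-stranded RNA activates, fell in the SUDS3 knockdown (log2 fold change -0.36, edgeR adjusted p = 1.2e-07) and was at 0.03 in the PHF12 knockdown (adjusted p = 0.70). EIF5A2, the paralog of EIF5A, rose in the PHF12 knockdown by 0.73 and in the SUDS3 knockdown by 0.70 (edgeR adjusted p = 2.7e-06 and 5.4e-06), with a difference of -0.03 between them (adjusted p = 0.837). PDCD4, an inhibitor of eIF4A, had log2 fold changes of 0.10 and -0.29 in the PHF12 and SUDS3 knockdowns and differed by -0.39 between them (edgeR adjusted p = 1.4e-10). These genes were chosen after their values were seen.

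Among the members, the length that the deposited TPM values imply differed from the annotated exon length by ratios of 0.0838 (EIF3C) to 21.1 (EIF4EBP1). Within a gene, the count per TPM, after division by each library's median, varied over libraries by a coefficient of variation of at most 0.0406%. Levels of 1 gene over the libraries were thus kept up to a factor common to all genes of a library. That division removes the factor itself, so its size was not measured. Comparisons between genes on the deposited TPM scale were affected.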
